A study of Mus musculus with 27 samples.

Results

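The genes described here are 10 genes of fibroblast growth factor (FGF) signalling: the ligands Fgf4, Fgf5, Fgf8, Fgf10 and Fgf15, the receptors Fgfr1, Fgfr2 and Fgfr3, and the target genes Spry4 and Etv4. They were measured by the probe sets whose only gene symbol in the array annotation was one of these 10. The rule found 23 probe sets among the 34945 with a single symbol, and all 10 genes were found among the 18193 genes of the array. The probe set with the highest mean over the arrays stood for a gene, and the other probe sets are described at the end. A level is the deposited log2 signal of a probe set, so 1 unit is a 2-fold difference. Levels were compared between groups within a gene, because probe sets differ in how strongly they bind. Sums and means over lists of genes, and the rank of Fgf10 within an array, mix probe sets and are descriptions.

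The arrays measured 3 mouse lines. R1 is a line of embryonic stem cells, H9 is an induced pluripotent line made with 3 factors (3F), and 19BL is an induced pluripotent line made with 4 factors (4F). The factors are not named in the sources used here, and each kind of cell was represented by 1 line, so the number of factors and the line cannot be told apart. At day 0 all lines were undifferentiated and grew on mitomycin-inactivated feeder cells with LIF, and at day 5 and day 11 they had differentiated as embryoid bodies in 20% serum without LIF. Each of the 9 groups held 3 biological replicates, numbered 1 to 3, which made 27 arrays, and this number limits the precision. The samples were whole cultures, so fewer cells of a type and less RNA per cell cannot be told apart.

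FGF ligands are secreted proteins that bind receptor tyrosine kinases with the help of heparan sulfate. The activated receptors signal mainly through RAS and the MAP kinases ERK1 and ERK2, which raise transcription factors of the ETV family and also inhibitors of the pathway, the Sprouty and DUSP proteins. In mouse pluripotent cells FGF4 is the main ligand that drives ERK, FGF5 is the classical marker of the epiblast after implantation, and FGF8 is made in the primitive streak.

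Fgf4 and Fgf5 are shown by sequence because the courses of this pair of ligands set 4F apart from the other lines. The RefSeq promoter table of the build GRCm38.p6 matched 5 of the 10 genes (Fgf4, Fgf5, Fgf10, Fgfr2 and Fgfr3). The 250 bases before the start of Fgf4 lie at chr7:144861136-144861385 and those of Fgf5 at chr5:98253934-98254183, both on the plus strand. Capitals mark the GC box, GGGCGG, and the CCAAT box, CCAAT, each found on either strand, so that a match on the minus strand reads CCGCCC or ATTGG.
Fgf4: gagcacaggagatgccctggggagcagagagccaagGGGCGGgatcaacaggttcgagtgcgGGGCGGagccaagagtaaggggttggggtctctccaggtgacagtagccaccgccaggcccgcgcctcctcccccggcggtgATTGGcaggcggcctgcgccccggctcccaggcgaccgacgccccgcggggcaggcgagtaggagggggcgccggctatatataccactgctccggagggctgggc
Fgf5: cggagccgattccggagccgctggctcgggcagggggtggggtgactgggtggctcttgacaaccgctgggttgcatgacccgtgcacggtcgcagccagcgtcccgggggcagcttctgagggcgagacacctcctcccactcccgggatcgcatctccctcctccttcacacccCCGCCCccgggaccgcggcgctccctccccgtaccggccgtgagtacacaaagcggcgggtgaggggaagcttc
The Fgf4 window held 2 GC boxes and 1 CCAAT box, and the Fgf5 window held 1 GC box and 0 CCAAT boxes. No matches overlapped. The TATA box as the exact letters TATAAA and the octamer ATGCAAAT were searched on both strands too and were in neither window. Looser forms were not searched, so tatatata near the end of the Fgf4 window was not counted as a match. Of 32851 windows of the same length in the table, 32.7% held the GC box, 33.8% the CCAAT box, 12.4% the TATA box and 1.6% the octamer. Guanine and cytosine made up 71.2% of the Fgf4 window and 70.8% of the Fgf5 window, against a median of 52.4% over all windows.

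The lines were checked by lists of marker genes. The summed signal of 8 pluripotency genes, among them Pou5f1 and Nanog, ran from 53499 to 76108 on the 9 day 0 arrays. At day 11 it was 1207 to 2338 in R1, 1048 to 1570 in 3F and 8301 to 15260 in 4F. Fibroblast and feeder genes (12 of 12 measured), which the feeder cells of day 0 also make, had summed signals of 8271 to 14348 in R1, 22314 to 38634 in 3F and 9530 to 19959 in 4F at day 0. They were 1699 to 7642, 2039 to 5147 and 896 to 1374 at day 5, and 69106 to 88167, 67993 to 104121 and 15455 to 36080 at day 11, in the same order of lines. Replicate 3 of 4F at day 5 stood apart in the primitive streak list (Mixl1, Eomes, Mesp1, Evx1 and Lhx1; T was not measured by a probe set of its own). Its mean level in that list was 11.27, against 7.95 and 8.12 in the other 4F arrays of that day, and the values it moves are given with and without it. Replicate 3 of R1 at day 5 was lower in that list, at 9.21 against 11.50 and 10.92. No list had a marker at 0, because RMA gives every probe set a signal.

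Fgf4 was high in all undifferentiated lines and fell in every line, but in 4F it fell later and less far. In R1 the 3 replicates had levels of 11.43, 10.98 and 10.07 at day 0, of 9.03, 8.12 and 6.998 at day 5, and of 5.75, 4.89 and 4.72 at day 11. In 3F they were 11.51, 11.92 and 11.00, then 8.29, 6.98 and 7.25, and finally 4.07, 4.69 and 4.94. In 4F they were 11.93, 11.85 and 11.42, then 11.70, 11.78 and 10.18, and finally 8.79, 9.92 and 8.76. The 3 days did not overlap in R1 or in 3F, whereas in 4F day 0 and day 5 overlapped and the day 11 arrays lay below both.

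From day 0 to day 5 Fgf4 fell by 2.78 ± 0.50 on the log2 scale (standard error of the fit, 3 against 3 arrays, adjusted p = 0.000135) in R1 and by 3.97 ± 0.50 in 3F (adjusted p = 2.18e-06). In 4F the change over these days was -0.51 ± 0.50 (95% confidence interval -1.55 to 0.52, adjusted p = 0.526). That value came from replicate 3 of day 5 (10.18), without which the change was 0.0094 (adjusted p = 0.995). Fgf4 fell in each line from day 5 to day 11, by 2.93 in R1, 2.94 in 3F and 2.06 in 4F, and the 4F value was -2.58 without that array. Over all 11 days the level fell by 5.71 in R1, which is 52.2-fold, by 6.90 in 3F and by 2.57 in 4F. In the order of the 9 group means the 3 undifferentiated groups and 4F at day 5 were highest, between 10.83 and 11.73, and their neighbours overlapped. A gap without overlap separated them from 4F at day 11 (mean 9.16), and another separated 3F at day 5 (7.50) from R1 and 3F at day 11 (5.12 and 4.57).

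Fgf4 did not separate the lines at day 0, where the 3 differences between lines were 0.26 to 0.90 with adjusted p between 0.466 and 0.933. At day 5 it was higher in 4F than in R1 by 3.17 ± 0.50 (adjusted p = 0.000219) and than in 3F by 3.72 (adjusted p = 2.05e-05). At day 11 the difference was 4.04 from R1 and 4.59 from 3F, and the arrays of 4F overlapped with neither line on either day. In the pluripotency list 5 of 8 genes were higher in 4F than in R1 at day 5, and 5 higher than in 3F. At day 11 these counts were 5 and 5 again, with 1 lower than in R1. Of all genes, 5.45% were called against R1 and 7.48% against 3F at day 5, and 8.31% and 10% at day 11. The part of this list in the Fgf4 values was not tested.

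Between day 0 and day 5 Fgf5 had the largest differences in change between 4F and the other lines among the 10 genes. Its levels were 9.09, 8.81 and 9.23 at day 0 in R1, and 8.60, 8.45 and 8.66 in 3F. In 4F they were 5.67, 5.91 and 6.37, below all arrays of the other lines. At day 5 R1 had 10.28, 9.51 and 6.75, 3F had 9.30, 6.59 and 6.82, and 4F had 10.43, 10.56 and 9.09. The replicates of R1 and of 3F spread widely on that day, with SDs of 1.85 and 1.5, while all 3 arrays of 4F were high. At day 11 Fgf5 was low in every line, between 4.05 and 5.65.

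In 4F Fgf5 rose from day 0 to day 5 by 4.04 ± 0.67 (16.5-fold, adjusted p = 0.000163), and leaving out single arrays gave 3.78 to 4.51. Over the same days the change was -0.20 ± 0.67 in R1 (95% interval -1.59 to 1.197, adjusted p = 0.866) and -1.0015 ± 0.67 in 3F (-2.39 to 0.39, adjusted p = 0.303). The 3F value rested on replicate 1 of day 5, without which it was -1.87 (adjusted p = 0.0368). In R1 replicates 1 and 2 of day 5 (10.28 and 9.51) lay above all day 0 arrays, and replicate 3 (6.75) lay below them. From day 5 to day 11 Fgf5 fell in all lines, by 3.81 in R1, 2.65 in 3F and 5.63 in 4F, and no array of day 11 reached an array of day 5. Over all 11 days it fell by 4.00 in R1 and 3.65 in 3F. In 4F, which started low, the change was -1.59 ± 0.67 with an adjusted p of 0.0608. Without the dim genes it was called (adjusted p = 0.0495), as it was with the replicate number as a block (0.0415) and with only the compared arrays (0.000754). With the 3' minus 5' index of the control probe sets as a covariate it was -4.75 (adjusted p = 0.00947), and that index was 2.69 in 4F at day 11 against 1.09 to 1.94 in the other groups (group means). The 4F arrays of day 11 (2.44 to 2.89) overlapped no other group in the index, whose next highest array was at 2.16. Index and group cannot be told apart there, so covariate values of 4F at day 11 are extrapolations, here and below. Further compared groups did not overlap in the index either. They were 4F at day 0 and day 5, 3F at day 11 and each earlier day, R1 at day 0 and day 11, and 3F and 4F at day 5. Covariate values of those comparisons have the same limit.

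Between the lines at day 0, Fgf5 was lower in 4F by 3.06 ± 0.67 than in R1 (adjusted p = 0.0134) and by 2.59 ± 0.67 than in 3F (adjusted p = 0.0282). These calls were near the limit of 3 arrays a group. Against R1 the adjusted p was 0.0680 without replicate 3 of R1, 0.0805 without replicate 1 of 4F and 0.0569 without replicate 2 of 4F. Against 3F each array left out ended the call (adjusted p 0.0614 to 0.113), with values of -2.78 to -2.43. At day 5 Fgf5 was higher in 4F than in 3F by 2.46 ± 0.67 (adjusted p = 0.0128), although replicate 1 of 3F lay within the range of 4F. That call ended without replicate 2 or 3 of 3F (1.97 and 2.08) or without replicate 1 or 2 of 4F (2.25 and 2.19). It also ended with the index as a covariate (1.27, adjusted p = 0.328). The index, a measure of RNA integrity, was 1.10 in 3F and 1.62 in 4F on that day (group means). Its arrays did not overlap between the lines (1.01 to 1.17 and 1.55 to 1.71), so index and line cannot be told apart there. The part of the index in the result was not tested further. Against R1 at day 5 Fgf5 was not called in 4F (1.18, adjusted p = 0.31), and the arrays overlapped. Without replicate 3 of 4F that value was 1.65 (adjusted p = 0.15). In the primed epiblast list (6 genes, without Fgf5) 4 of 6 genes were higher in 4F than in R1 and than in 3F at day 5, and 1 was lower in each. Of all genes, 5.45% were called against R1 and 7.48% against 3F. The summed signal of the list was 11441 to 22445 in 4F, 6910 to 13714 in R1 and 9343 to 12425 in 3F.

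**Figure D1:**
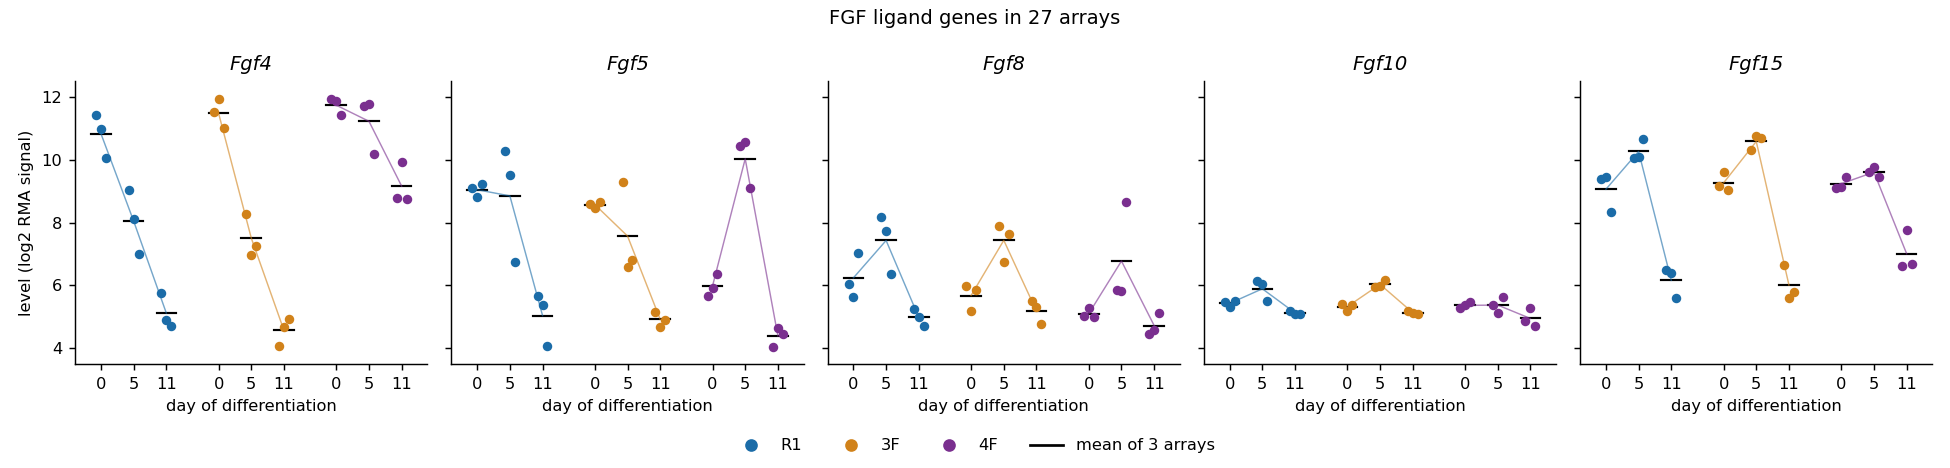
Levels of the 5 ligand genes (vertical axis, log2 RMA signal) by day of differentiation (horizontal axis, day 0, 5 and 11) in R1, 3F and 4F. Each point is 1 array, bars are means of 3 arrays and lines join the means. Fgf4 stays between 8.76 and 11.93 in 4F, and Fgf15 is lowest at day 11 in each line. The mean of Fgf5 rises at day 5 in 4F alone among the 3 lines, although some R1 and 3F arrays of day 5 lie above those of day 0.

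The order in which Fgf4 and Fgf5 changed was examined by setting both ligands side by side for each array. At day 0 all lines had high Fgf4, and R1 and 3F had high Fgf5 as well (8.45 to 9.23). At day 5 the 4F arrays were high in both ligands, Fgf4 at 10.18 to 11.78 and Fgf5 at 9.09 to 10.56. In R1 and 3F Fgf4 had already fallen to 6.98 to 9.03 by that day, and the array with the highest Fgf5 in each line was also the one with the highest Fgf4. At day 11 4F kept Fgf4 (8.76 to 9.92) at Fgf5 levels of 4.05 to 4.66, a combination that no R1 or 3F array showed at any day. Over the 27 arrays the Pearson correlation of the 2 genes was 0.56, given as a description, since arrays of a group share line and day.

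**Figure D2:**
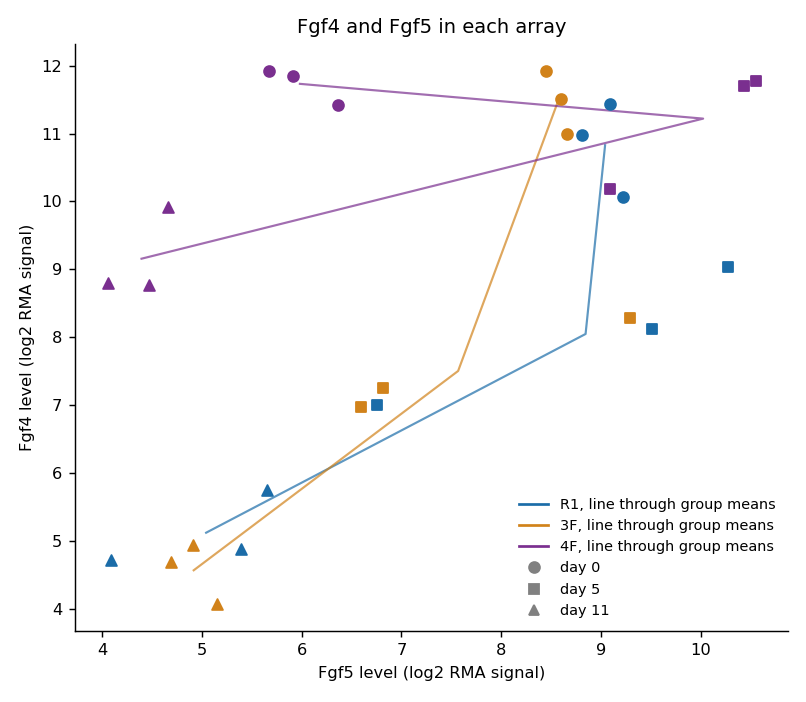
Fgf4 level (vertical axis) against Fgf5 level (horizontal axis), both in log2 RMA signal, with 1 point per array, colours for lines, shapes for days and lines through the group means. The 4F arrays move to high Fgf5 (9.09 to 10.56) at day 5 with Fgf4 still at 10.18 or more, and at day 11 they lie at Fgf5 levels of 4.05 to 4.66, below their day 0 levels (5.67 to 6.37).

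Fgf8, a ligand of the primitive streak and the early mesoderm, was highest at day 5 and low at day 11. In R1 its levels were 6.04, 5.65 and 7.04 at day 0, then 8.18, 7.74 and 6.37, then 5.24, 4.99 and 4.72. In 3F they were 5.99, 5.18 and 5.87, then 7.90, 6.76 and 7.64, then 5.49, 5.30 and 4.76. In 4F they were 5.04, 5.29 and 4.98, then 5.86, 5.81 and 8.65, then 4.45, 4.59 and 5.14. The single high array of 4F at day 5 was replicate 3, the one that stood apart in the streak list.

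Fgf8 rose by day 5 in 3F, by 1.76 ± 0.55 (adjusted p = 0.0182), and this call ended without replicate 2 of day 0 (1.51, adjusted p = 0.0835) and without replicate 1 or 3 of day 5 (1.52 and 1.65). In 4F the rise was 1.67 ± 0.55 (adjusted p = 0.0326) with all arrays and 0.74 (adjusted p = 0.285) without replicate 3 of day 5. The call also ended without any one replicate of 4F at day 0 (1.61 to 1.76, adjusted p 0.0627 to 0.0881), with only the compared arrays (adjusted p = 0.116) and with the 3' minus 5' index as a covariate (1.31, adjusted p = 0.109). In R1 the change was 1.19 ± 0.55 (adjusted p = 0.102), and it was called without replicate 3 of day 0 (1.59, adjusted p = 0.0479) or of day 5 (1.72, adjusted p = 0.0279). Fgf8 fell from day 5 to day 11 by 2.45 in R1, 2.25 in 3F and 2.05 in 4F, and the 4F value was -1.11 (adjusted p = 0.0508) without replicate 3 of day 5 and lost its call with only the compared arrays (adjusted p = 0.0669). From day 0 to day 11 the change in R1 was -1.26 ± 0.55 (adjusted p = 0.0688), called without replicate 2 of day 0 (-1.55, adjusted p = 0.0489), with only the compared arrays (adjusted p = 0.0207) and with the index as a covariate (-1.83, adjusted p = 0.0243). No pair of lines was called for Fgf8 on any day with all arrays. Without replicate 3 of 4F at day 5, Fgf8 was lower in 4F than in R1 by 1.59 (adjusted p = 0.0143) and than in 3F by 1.60 (adjusted p = 0.0112). The summed signal of the streak list at day 5 was 3628 to 19539 in R1, 5475 to 19287 in 3F and 2710 to 19931 in 4F, and its part in the Fgf8 values was not tested.

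Fgf15, the mouse counterpart of human FGF19 and known in the embryo from neural tissue and in the adult as an intestinal hormone, was high until day 5 and fell sharply afterwards. R1 had levels of 9.37, 9.46 and 8.34 at day 0, 10.05, 10.07 and 10.66 at day 5 and 6.50, 6.39 and 5.59 at day 11. 3F had 9.16, 9.60 and 9.02, then 10.31, 10.74 and 10.68, then 6.66, 5.60 and 5.77. 4F had 9.11, 9.14 and 9.45, then 9.60, 9.77 and 9.43, then 6.60, 7.75 and 6.68. In R1 and 3F the 3 days did not overlap, and in 4F day 0 and day 5 did.

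By day 5 Fgf15 rose by 1.203 ± 0.33 in R1 (adjusted p = 0.00595) and by 1.32 ± 0.33 in 3F (adjusted p = 0.00355), against 0.37 ± 0.33 in 4F (95% interval -0.31 to 1.05, adjusted p = 0.480). The R1 rise rested on replicate 3 of day 0, without which it was 0.84 (adjusted p = 0.0579). It fell from day 5 to day 11 by 4.10 in R1 (17.2-fold, adjusted p = 5.81e-09), by 4.57 in 3F (23.7-fold) and by 2.59 in 4F (6.03-fold). Day 11 was below day 0 by 2.90 in R1, 3.25 in 3F and 2.22 in 4F. With the index as a covariate the 4F value was -1.78 (adjusted p = 0.0792), and the index of 4F at day 11 was 2.69, the highest of the 9 group means. No pair of lines differed in Fgf15 by the threshold at any day with all arrays. At day 5 it was lower in 4F than in 3F by 0.97 ± 0.33 (adjusted p = 0.0433), and by 1.11 without replicate 1 of 3F. At day 11 the difference of 4F from 3F was 0.9986 ± 0.33 (adjusted p = 0.0253, just under 2-fold) and from R1 0.85 ± 0.33 (adjusted p = 0.0629). After quantile normalization or cyclic loess both were called, at 1.12 and 1.03 against 3F and at 1.0033 and 1.0002 against R1. Leaving out replicate 3 of 4F made both calls as well (1.16 and 1.02), and leaving out replicate 1 of 3F (1.32) or of 4F (1.202) made the call against 3F.

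Fgf10, a ligand of mesenchyme that signals to epithelia in lung and limb, stayed dim. Its 27 values lay between 4.69 and 6.18, and its level was above at most 36.8% of the genes of the same array. The highest group means were those of 3F (6.03 ± 0.13, SD, n = 3) and R1 (5.89 ± 0.33) at day 5, against 5.37 ± 0.26 in 4F. None of the 18 comparisons of groups moved it 2-fold. The nearest was day 11 against day 5 in 3F, at -0.90 ± 0.16 (adjusted p = 7.53e-05), which was called after quantile normalization (-1.03), cyclic loess (-1.01) and with the index as a covariate (-1.10). In 4F from day 0 to day 11 the change was -0.42 (adjusted p = 0.0347), and -1.04 (adjusted p = 0.0183) with the index as a covariate.

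All calls of receptors against day 0 were rises, while those of Fgf4 were falls. Fgfr1, the receptor of the epiblast and of mesoderm, had levels of 8.48, 7.58 and 7.59 in R1 at day 0, 9.19, 9.36 and 9.66 at day 5 and 8.78, 8.68 and 9.64 at day 11. 3F had 8.54, 8.58 and 8.82, then 10.02, 10.38 and 10.15, then 8.39, 8.88 and 10.07. 4F had 8.47, 8.23 and 8.31, then 9.15, 9.23 and 9.77, then 9.28, 9.08 and 9.29. In every line each day 5 array was above each day 0 array, and in R1 and 3F the replicate 3 array was the highest at day 11.

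Fgfr1 rose by day 5 by 1.52 ± 0.31 in R1 (adjusted p = 0.000544), 1.54 ± 0.31 in 3F (adjusted p = 0.000597) and 1.05 ± 0.31 in 4F (adjusted p = 0.0188). The 4F call ended without replicate 2 or 3 of day 0 (0.996 and 1.03, adjusted p 0.0644 and 0.0531) and without replicate 3 of day 5 (0.86, adjusted p = 0.0983). Day 11 was above day 0 by 1.15 ± 0.31 in R1, where the value was 0.85 without replicate 3 of day 11. In 4F the difference was 0.88 ± 0.31 (adjusted p = 0.0257, under 2-fold), and it passed 2-fold after quantile normalization (1.07) and cyclic loess (1.11). With the index as a covariate it was 2.64 (adjusted p = 0.00157), and the value in 3F over the same days was 1.04 (adjusted p = 0.0071) in place of 0.46. The 4F value is an extrapolation, because the index of 4F at day 11 overlapped that of no other group. The 3F arrays of day 0 and day 11 did not overlap in the index either. In 3F Fgfr1 fell from day 5 to day 11 by 1.07 ± 0.31 with overlapping arrays. That call ended after quantile normalization (-0.83) and cyclic loess (-0.78), with the index as a covariate (-0.50), with only the compared arrays (adjusted p = 0.0933), and without replicate 2 of day 5 (-0.98) or replicate 1 or 2 of day 11 (-0.71 and -0.96). No pair of lines was called for Fgfr1 with all arrays. At day 5 the 3F arrays (10.02 to 10.38) nevertheless lay above those of R1 (9.19 to 9.66) and of 4F (9.15 to 9.77). The difference of 4F from 3F was -0.80 (adjusted p = 0.0874), and -0.99 (adjusted p = 0.0478) without replicate 3 of 4F, both under 2-fold. Without replicate 1 of R1 at day 0, 3F was above R1 on that day by 1.06 (adjusted p = 0.0285).

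Fgfr2, the receptor that in the blastocyst marks primitive endoderm and trophectoderm and later epithelia, was lower in 4F than in the other lines at day 5 but not at day 11. R1 had levels of 8.80, 8.49 and 8.48 at day 0, 9.29, 9.53 and 10.45 at day 5 and 9.67, 9.45 and 9.14 at day 11. 3F had 7.73, 7.64 and 7.91, then 9.47, 10.74 and 10.27, then 9.73, 9.13 and 9.33. 4F had 7.31, 7.02 and 7.76, then 7.87, 8.02 and 7.76, then 9.87, 9.91 and 8.78. In 4F the day 11 arrays lay above those of day 0 and day 5, while in R1 and 3F the day 5 arrays already lay above those of day 0.

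Fgfr2 rose from day 0 to day 5 by 1.17 ± 0.32 in R1 (adjusted p = 0.00562) and by 2.41 ± 0.32 in 3F (adjusted p = 3.85e-06), and changed by 0.52 ± 0.32 in 4F (95% interval -0.13 to 1.17, adjusted p = 0.270). The R1 value was 0.82 (adjusted p = 0.0594) without replicate 3 of day 5. It rose from day 5 to day 11 in 4F by 1.64 ± 0.32 (adjusted p = 0.000263), while the values in R1 and 3F were -0.34 and -0.77 with overlapping arrays. Without replicate 1 of 3F at day 5 the 3F value was -1.11 (adjusted p = 0.0101). Day 11 was above day 0 by 1.64 in 3F and 2.16 in 4F. At day 5 Fgfr2 was lower in 4F than in R1 by 1.87 ± 0.32 (adjusted p = 0.000404) and than in 3F by 2.28 ± 0.32 (adjusted p = 2.91e-05), without overlap. By day 11 these differences were 0.10 and 0.13, with 95% intervals of -0.55 to 0.76 and -0.53 to 0.78. The summed signal of 6 yolk sac and visceral endoderm genes was 870 to 1137 in 4F at day 5, against 3257 to 5305 in R1 and 1606 to 3255 in 3F, and 4946 to 6271 in 4F at day 11. Of these 6 genes, 0 were higher and 2 lower in 4F than in R1 at day 5 (5.45% of all genes called), and 2 were higher and 1 lower than in 3F (7.48% called). The part of this list in the Fgfr2 values was not tested.

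At day 0 Fgfr2 was also lower in 4F than in R1, by 1.23 ± 0.32 (adjusted p = 0.0410). The same-numbered arrays of those groups deviated together, and with the replicate number as a block the adjusted p was 0.0511. It was 0.0877 after quantile normalization. The call ended without any one of R1 replicates 1, 2 and 3 or 4F replicates 1 and 2, with values of -1.28 to -1.06 and adjusted p of 0.0558 to 0.198.

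Fgfr3, a receptor known best from cartilage, rose in R1 and 3F by day 5, and in 4F its level was higher only at day 11. R1 had levels of 8.17, 7.89 and 7.61 at day 0, 8.29, 9.15 and 9.32 at day 5 and 9.26, 9.43 and 9.09 at day 11. 3F had 7.72, 8.06 and 8.17, then 8.63, 9.48 and 9.11, then 8.66, 9.28 and 9.47. 4F had 8.08, 8.07 and 8.28, then 8.01, 8.02 and 8.11, then 9.04, 8.73 and 8.94. All day 5 arrays of R1 and 3F lay above their day 0 arrays, and those of 4F did not.

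By day 5 Fgfr3 rose by 1.03 ± 0.24 in R1 (adjusted p = 0.00168) and 1.09 ± 0.24 in 3F (adjusted p = 0.00126), both close to the 2-fold limit, and the change in 4F was -0.10 ± 0.24 (95% interval -0.59 to 0.40). The R1 value fell under 2-fold without replicate 3 of day 0 (0.89) or replicate 2 or 3 of day 5 (0.91 and 0.83), and after quantile normalization (0.92) and cyclic loess (0.91). The 3F value did so without replicate 1 of day 0 (0.95) or replicate 2 of day 5 (0.88). Day 11 was above day 0 by 1.37 in R1 and 1.15 in 3F, the latter at 0.98 without replicate 3 of day 11. In 4F day 11 was above day 5 by 0.86 ± 0.24 (adjusted p = 0.00674), under 2-fold, and passed it after cyclic loess (1.09) and with the index as a covariate (1.41, adjusted p = 0.0186). Against day 0 it was above by 0.76 ± 0.24 (adjusted p = 0.0128), and by 1.47 (adjusted p = 0.0381) with the index as a covariate. At day 5 Fgfr3 was lower in 4F than in 3F by 1.03 ± 0.24 (adjusted p = 0.00403), and this value was -0.83 without replicate 2 of 3F, -0.92 after quantile normalization, -0.99 after cyclic loess and -0.76 with the index as a covariate. Against R1 it was -0.87 ± 0.24 (adjusted p = 0.0175), and -1.19 without replicate 1 of R1.

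**Figure D3:**
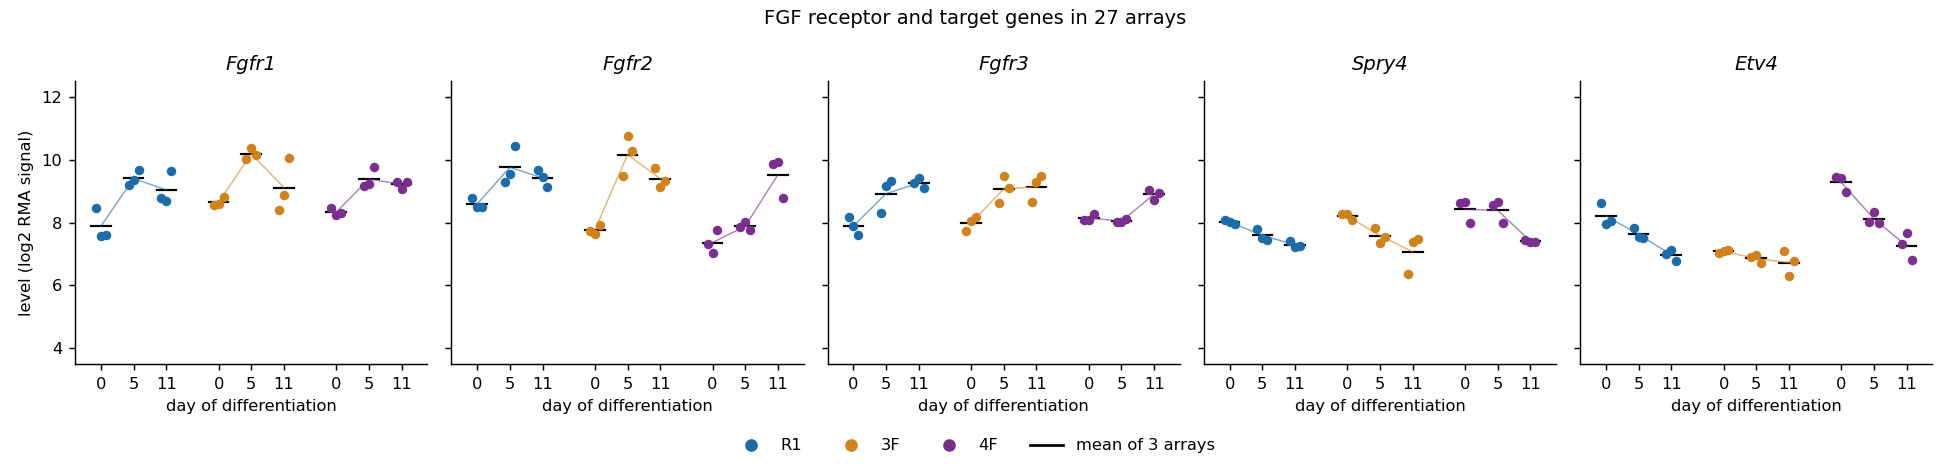
Levels of the 3 receptor and 2 target genes (vertical axis, log2 RMA signal) by day (horizontal axis) in R1, 3F and 4F, with 1 point per array, bars for means of 3 arrays and lines joining the means. At day 5 Fgfr2 lies at 7.76 to 8.02 in 4F and at 9.29 to 10.74 in R1 and 3F, and Etv4 starts at 8.96 to 9.44 in 4F against 7.02 to 7.14 in 3F.

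Etv4, a transcription factor of the ETV family that ERK activity raises, separated the undifferentiated lines. Its levels at day 0 were 8.62, 7.95 and 8.05 in R1, 7.02, 7.08 and 7.14 in 3F and 9.44, 9.43 and 8.96 in 4F. The 3 lines did not overlap, with 3F lowest and 4F highest. Etv4 was higher in 4F than in 3F by 2.20 ± 0.21 (4.59-fold, adjusted p = 1.15e-06) and than in R1 by 1.07 ± 0.21 (adjusted p = 0.00601), and lower in 3F than in R1 by 1.13 ± 0.21 (adjusted p = 0.00292). The first difference was called without each array (2.12 to 2.36). The 4F and R1 difference fell under 2-fold without replicate 2 or 3 of R1 or replicate 1 or 2 of 4F (0.95 to 0.996) and after quantile normalization (0.92), and it had an adjusted p of 0.0799 with only the compared arrays. The 3F and R1 difference was -0.92 without replicate 1 of R1. With the mean of the 2 probe sets of Etv4 both differences from R1 fell under 2-fold, at 0.62 for 4F (adjusted p = 0.0361) and -0.65 for 3F (adjusted p = 0.0153).

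Over time Etv4 fell in 4F, to 8.02, 8.33 and 7.98 at day 5 and 7.31, 7.66 and 6.81 at day 11. In R1 it was 7.83, 7.53 and 7.52 at day 5 and 7.01, 7.13 and 6.79 at day 11, and in 3F 6.90, 6.95 and 6.72, then 7.11, 6.29 and 6.77. Thus 3F began at the level that the other lines reached by day 11. The fall from day 0 to day 11 was 2.02 ± 0.21 in 4F (adjusted p = 1.01e-07) and 1.23 ± 0.21 in R1 (adjusted p = 5.05e-05), and the value in 3F was -0.36 ± 0.21 (95% interval -0.80 to 0.08). In 4F a fall of 1.17 ± 0.21 (adjusted p = 0.000430) was already present at day 5. The change from day 5 to day 11 in 4F was -0.86 ± 0.21, and without replicate 2 of day 11 it was -1.05 and passed 2-fold. At day 5 Etv4 was still higher in 4F than in 3F, by 1.26 ± 0.21 (adjusted p = 0.000251).

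Spry4, an inhibitor of receptor tyrosine kinase signalling that the pathway itself turns on, was lower at day 11 than at day 0 in all lines. R1 had levels of 8.07, 8.03 and 7.96 at day 0, 7.80, 7.51 and 7.45 at day 5 and 7.42, 7.22 and 7.25 at day 11. 3F had 8.27, 8.28 and 8.07, then 7.84, 7.36 and 7.55, then 6.36, 7.38 and 7.46. 4F had 8.62, 8.64 and 7.9975, then 8.55, 8.64 and 7.98, then 7.45, 7.37 and 7.39. In all lines the day 11 arrays lay below the day 0 arrays, and in 4F day 5 and day 0 overlapped for this probe set (a change of -0.03 ± 0.23).

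Spry4 fell from day 0 to day 11 by 1.14 ± 0.23 in 3F (adjusted p = 0.000220) and by 1.02 ± 0.23 in 4F (adjusted p = 0.000793). In R1 the change was -0.73 ± 0.23 (adjusted p = 0.0111), under 2-fold. The 3F value was -0.79 without replicate 1 of day 11. The 4F value fell under 2-fold without replicate 1 or 2 of day 0 (-0.92 and -0.90) and after quantile normalization (-0.91) and cyclic loess (-0.93), and it lost its adjusted p with the index as a covariate (-1.02, adjusted p = 0.155). In 4F from day 5 to day 11 the change was -0.98 ± 0.23, and -1.19 without replicate 3 of day 5 and -1.01 without replicate 1 of day 11, both past 2-fold. At day 5 Spry4 was higher in 4F by 0.80 than in R1 and by 0.81 than in 3F, under 2-fold, and without replicate 3 of 4F both passed it (1.01 and 1.01).

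The 10 genes were counted against all genes tested. A gene was called with an adjusted p under 0.05 and at least a 2-fold change. From day 0 to day 5 there were 5 of 10 called in R1, 6 in 3F and 4 in 4F, where 14.7%, 12.4% and 7.07% of all 18193 genes were called. The 4 in 4F were 2 without replicate 3 of day 5, without replicate 2 of day 0 or without replicate 3 of day 0. From day 5 to day 11 the counts were 4, 5 and 5, against 11.6%, 16.9% and 15.8% of all genes. From day 0 to day 11 they were 6, 6 and 5, against 23.6%, 23.6% and 20.8%. The median change of the 10 genes was 0.75, 0.90 and 0.19 by day 5 (over all genes -0.02, -0.0039 and 0.02 in R1, 3F and 4F) and -0.71, -0.99 and -0.92 from day 5 to day 11 (over all genes -0.05, -0.01 and -0.15).

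Few of the 10 genes separated 3F from R1, and few of all genes did. At day 0 only Etv4 of the 10 genes was called between them (3.09% of all genes were called). At day 5 0 of the 10 were called by limma, with 2 at an unadjusted p under 0.05 (Fgfr1 at 0.78 ± 0.31 and Etv4 at -0.77 ± 0.21), against 0.374% of all genes. At day 11 0 were called, with 0 at an unadjusted p under 0.05, against 1.02% of all genes. The 95% intervals at day 11 were widest for Fgf5 (-1.52 to 1.27) and narrowest for Fgf10 (-0.32 to 0.33), so 2-fold differences of the more variable ligands could not be seen or dismissed with 3 arrays.

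4F differed more. Against R1 the calls were Fgf5, Fgfr2 and Etv4 at day 0 (1.12% of all genes), Fgf4 and Fgfr2 at day 5 (5.45%) and Fgf4 at day 11 (8.31%). The 3 calls of day 0 were 0 without replicate 3 of R1, replicate 1 of 4F or replicate 2 of 4F, and 1 without replicate 2 of R1 (Etv4 at 0.95 and Fgfr2 at -1.28 were the calls that ended). Day 5 had 4 calls without replicate 3 of 4F, Fgf8 and Spry4 in addition, and 3 without replicate 1 of R1. Day 11 had 2 without replicate 3 of 4F. Against 3F they were Fgf5 and Etv4 at day 0 (1.98%), Fgf4, Fgf5, Etv4, Fgfr2 and Fgfr3 at day 5 (7.48%) and Fgf4 at day 11 (10%). The day 0 count was 1 without any single array of these groups. The day 5 count was 3 without replicate 2 of 3F, and 7 without replicate 3 of 4F, with Fgf8 (-1.60) and Spry4 (1.01) in addition. The day 11 count was 2 without replicate 1 of 3F or replicate 1 or 3 of 4F. Over all genes the median of the day 11 comparisons of 4F lay at -0.10 against R1 and -0.12 against 3F, and cyclic loess brought them to -0.001 and -0.014.

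**Figure D4:**
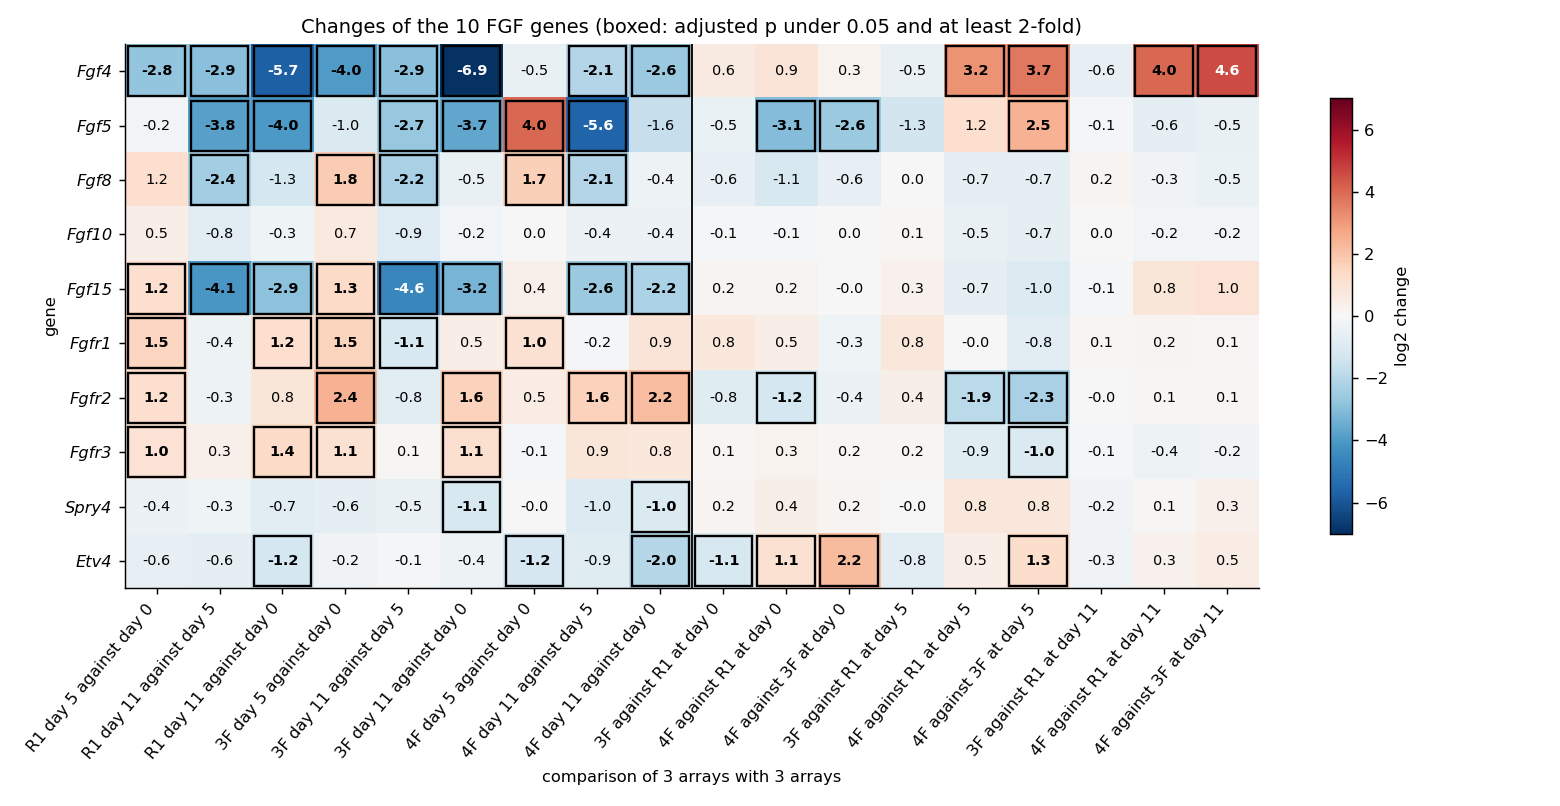
Log2 change of each of the 10 genes (rows) in 18 comparisons of 3 with 3 arrays (columns), days within a line on the left and lines at a day on the right. Red is higher and blue lower in the first-named group, and boxes mark changes of at least 2-fold with an adjusted p under 0.05. The columns of 3F against R1 hold 1 box in all, and the Fgf4 row holds boxes for 4F against both other lines at day 5 and day 11.

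The changes over an interval were compared between lines directly, a test that uses the same arrays as the comparisons above. It tests the size of a change and not its timing. The change of Fgf5 by day 5 was higher in 4F than in R1 by 4.24 ± 0.95 (adjusted p = 0.0122, 3.64% of all genes called) and than in 3F by 5.05 ± 0.95 (adjusted p = 0.00308, 3.47% called). These values hold the low day 0 level of 4F, at -3.06 against R1 and -2.59 against 3F. At day 5 the differences were 1.18 against R1, which was not called, and 2.46 against 3F. The change of Fgf4 from day 0 to day 5 was higher in 4F than in 3F by 3.46 ± 0.71 (adjusted p = 0.00599). Against R1 it was higher by 2.27 ± 0.71 (adjusted p = 0.0701), and this was called without replicate 3 of 4F at day 5 (2.79, adjusted p = 0.0122), without replicate 3 of R1 at day 0 (2.65) or replicate 1 of R1 at day 5 (2.76), after quantile normalization (2.46), cyclic loess (2.33) and with the replicate number as a block (adjusted p = 0.0223). From day 5 to day 11 the change of Fgfr2 was higher in 4F than in R1 by 1.97 ± 0.45 (adjusted p = 0.00799, 6.72% called) and than in 3F by 2.41 ± 0.45 (adjusted p = 0.00165, 7.12% called). Over the first 5 days its change in 4F minus that in R1 was -0.65 ± 0.45 (95% interval -1.57 to 0.28, adjusted p = 0.511), and minus that in 3F it was -1.89 ± 0.45 (adjusted p = 0.0166). For Fgf5 from day 5 to day 11 the change in 4F minus that in R1 was -1.83 (adjusted p = 0.238), and -3.64 (adjusted p = 0.0406) with the index as a covariate. For Fgfr1 in the same interval 4F minus 3F was 0.91 (adjusted p = 0.178), and it was called with the index as a covariate (1.70) and without replicate 3 of 3F at day 11 (1.39). For Fgfr3 the differences of 4F from R1 and 3F over the first 5 days were -1.13 (adjusted p = 0.0602) and -1.18 (adjusted p = 0.0502), just short of the threshold. The former was called after cyclic loess, with the replicate number as a block (adjusted p = 0.0405) and without replicate 1 of R1 at day 0 or day 5 (-1.26 and -1.44). The latter was called after quantile normalization (adjusted p = 0.0349) and cyclic loess (0.028), without the dim genes (0.0432), with only the compared arrays (0.0127), with the block (0.0323) and without replicate 1 of 3F or replicate 3 of 4F at day 5 (-1.403 and -1.21). Between 3F and R1 0 of the 10 genes differed in either interval by limma (0.374% and 0.137% of all genes), with Fgfr2 at 1.24 ± 0.45 (adjusted p = 0.314) the 1 gene with an unadjusted p under 0.05 from day 0 to day 5.

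Other genes of the pathway came from 4 lists, whose counts stand beside the shares of all genes called, 14.7%, 12.4% and 7.07% by day 5 in R1, 3F and 4F and 11.6%, 16.9% and 15.8% from day 5 to day 11. Of 17 other ligands, 4 were called by day 5 in R1 (1 higher), 4 in 3F (1 higher) and 3 in 4F (1 higher), and the medians of the list were -0.15, -0.04 and 0.04. Fgf3, a ligand of the primitive streak and of the inner ear, rose most, by 5.32 ± 0.51 in R1 and 5.42 in 3F. Its levels at day 5 were 10.40, 10.73 and 11.05 in R1, 10.38, 10.78 and 11.04 in 3F, and 5.89, 6.21 and 9.14 in 4F. In 4F the rise was 1.73 (adjusted p = 0.0169). It was 0.70 (adjusted p = 0.114) without replicate 3 of day 5, and it lost its call without replicate 3 of day 0 (1.62, adjusted p = 0.0615) and with only the compared arrays (adjusted p = 0.136). At day 5 Fgf3 was lower in 4F by 3.65 than in each other line. Fgf17, which belongs to the Fgf8 subfamily, fell by day 5 by 2.64 in R1 and 2.20 in 3F, and by day 11 in 4F by 2.21. Fgf7, a ligand made by fibroblasts, was highest at day 0, when feeder cells were present, at 5.72 to 6.98 in R1, 7.22 to 7.76 in 3F and 7.02 to 8.06 in 4F. It fell by day 5 by 2.14 in 3F and 2.11 in 4F, and by 1.035 in R1, where the value was -0.89 and under 2-fold with the index as a covariate. The fibroblast list fell by day 5 too (6, 9 and 11 of its 12 genes in R1, 3F and 4F), but from day 5 to day 11 9, 8 and 9 of the 12 rose, and Fgf7 changed by -0.14, 0.04 and -0.25. The part of that list in the Fgf7 values was not tested. From day 5 to day 11 none of the 17 ligands rose and 2, 2 and 3 fell in R1, 3F and 4F, Fgf13 and Fgf3 in each line.

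Of 12 other receptors and co-receptors, 4 rose and 2 fell by day 5 in R1, 3 rose and 3 fell in 3F, and 1 rose and 2 fell in 4F (14.7%, 12.4% and 7.07% of all genes called), with medians of 0.20, 0.04 and 0.00. Flrt3, a membrane protein that binds FGF receptors, rose by 2.42 ± 0.27 in both R1 and 3F. In 4F its day 5 levels of 6.88, 6.64 and 7.95 were near those of day 0 (7.20, 7.44 and 7.76), and it rose by 2.45 ± 0.27 from day 5 to day 11. Flrt3 was thus lower in 4F at day 5 by 2.22 than in R1 and by 2.26 than in 3F, without overlap, as Fgfr2 was. Gpc3, a heparan sulfate proteoglycan of the cell surface, rose by day 5 by 1.87 in R1 and 3.31 in 3F. At day 5 it was lower in 4F than in 3F by 2.59 ± 0.37 (adjusted p = 3.96e-05). Between day 5 and day 11 there were 5 rises in R1, 3 in 3F and 3 in 4F among the 12 (11.6%, 16.9% and 15.8% of all genes called), and 0 falls in any line, and Flrt2 rose most, by 3.33, 3.52 and 5.18.

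Of 14 other feedback inhibitors and target genes, 0 rose and 5, 4 and 3 fell by day 5 in R1, 3F and 4F, although the medians were 0.08, -0.38 and 0.22. By day 11 against day 0, 4, 7 and 5 had fallen and 0 had risen, with medians of -0.36, -0.91 and -0.81 (over all genes -0.04, 0.01 and -0.11, with 23.6%, 23.6% and 20.8% called). Etv5, the close relative of Etv4, had levels of 12.53, 11.33 and 11.27 in R1 at day 0 and 7.65, 7.40 and 6.13 at day 11. It fell over the 11 days by 4.65 ± 0.41 in R1, 5.46 in 3F and 3.78 in 4F. By day 5 it fell by 1.9958 in R1 and by 2.10 in 3F, while in 4F its levels of 11.02, 11.18 and 11.01 were near those of day 0 (11.75, 11.78 and 11.17). Spry2, a relative of Spry4, fell over the 11 days by 2.08 in 3F and 1.52 in 4F. Dusp6, a phosphatase that switches off ERK, was 10.14, 10.13 and 10.14 in 4F at day 5, above 9.19, 8.35 and 8.64 in 3F by 1.41 ± 0.29 (adjusted p = 0.0016). The immediate early gene Fos fell by day 5 by 2.57, 3.04 and 3.4974 in R1, 3F and 4F.

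Of 13 measured signal transducers, 3, 3 and 0 were called by day 5 in R1, 3F and 4F, against 14.7%, 12.4% and 7.07% of all genes. Gab1, an adaptor of receptor tyrosine kinases, fell by 1.9991 in R1 and 1.68 in 3F by day 5, and by 2.11 in 4F by day 11, where the call ended with the index as a covariate (-0.92, adjusted p = 0.203). Plcg1, a phospholipase that binds FGF receptors, rose by day 5 by 1.302 in R1 and 1.15 in 3F. In 4F 0 of 13 were called by limma at day 5, and 3 had an unadjusted p under 0.05, Plcg1 at 0.996, Gab1 at -0.92 and Grb2 at -0.61.

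The genes whose levels followed each member most closely over the 27 arrays were taken as the 3 with the highest Pearson correlation. They share arrays, lines and days with the member, and nothing is said of their function with it. For Fgf4 they were Dyrk3, Mkrn1 and Zfp982, each at 0.97. For Fgf5 they were Epha1 (0.93), Pim2 (0.92) and Rhpn2 (0.91), and for Fgf8 they were Alox15 (0.96), Mixl1 (0.95) and Etv2 (0.93). Fgf15 was closest to Arhgap19, Pold1 and Sall4 (0.95, 0.95 and 0.94). Fgf10 was closest to Foxh1, Nrarp and Tead4, each at 0.89. Fgfr1 was closest to Setd5, Rere and Arid1b (0.93, 0.92 and 0.92), Fgfr2 to Fam126a, Pcgf5 and Lypd6 (0.89, 0.89 and 0.88) and Fgfr3 to Adgra2, Samd14 and 2610008E11Rik (0.92 each). Spry4 was closest to Asxl2, Bcas1 and Sema4d (0.94, 0.92 and 0.92), and Etv4 to Inpp5d, Vill and Tex11 (0.90, 0.90 and 0.89). Among the 10 genes themselves Fgf4 and Spry4 had a correlation of 0.87, Fgf8 and Fgf10 of 0.84, Fgfr2 and Fgfr3 of 0.79, and Fgf4 and Fgfr3 of -0.83.

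The probe sets of a gene did not all behave alike. Of 4 for Fgf4, the brightest 2 had a correlation of 0.997 over the arrays, another stayed between 6.16 and 7.44 (correlation -0.05) and the last between 3.84 and 6.68 (0.66). The second probe set of Fgf5 stayed between 4.99 and 6.74 (0.44). Fgfr1 had 3 probe sets whose dimmer 2 followed the brightest at 0.78 and 0.75. For Fgfr2 the second followed at 0.84 and the third stayed between 4.69 and 5.24. The dim second probe set of Fgfr3 stayed between 5.00 and 5.98 (correlation -0.42), and that of Etv4 between 4.70 and 5.85 (0.57). Fgf8, Fgf10 and Fgf15 had 1 probe set each.

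For Spry4 the choice of probe set mattered as well. The 2 probe sets next in brightness changed more than the brightest. In 3F they fell from day 0 to day 5 by 1.45 ± 0.30 and 1.57 ± 0.37, where the brightest changed by -0.62 ± 0.23. In 4F their changes from day 0 to day 5 were -0.97 ± 0.30 (adjusted p = 0.0259, no overlap) and -0.60 ± 0.37 (adjusted p = 0.296), and that of the dimmest was -0.47 ± 0.14 (adjusted p = 0.0221, no overlap), where the brightest changed by -0.03. From day 5 to day 11 in 4F the 2 next in brightness fell by 1.57 and 1.80. At day 5 these 2 were higher in 4F than in 3F by 1.247 (adjusted p = 0.00635 over all probe sets) and 1.51 (adjusted p = 0.00685), against 0.81 for the brightest. The direction was the same for the 3 probe sets in these comparisons, and the brightest fell short of 2-fold. When all probe sets of a gene were averaged in place of taking the brightest, Spry4 passed it in 3F by day 5 (-1.06), in 4F from day 5 to day 11 (-1.29), in 4F against 3F at day 5 (1.01) and in R1 over the 11 days (-1.18). The same mean brought other genes with dim and flat probe sets under 2-fold. Fgfr2 was at 0.66 in R1 from day 0 to day 5, at 0.72 in 4F from day 5 to day 11 and at -0.98 in 4F against R1 at day 5. At day 0 Fgfr2 in 4F was at -0.55 against R1 (adjusted p = 0.209), and over the 11 days it was at 0.76 in 3F and 0.95 in 4F. Fgfr3 was at 0.38 in R1 and 0.56 in 3F by day 5, at 0.56 and 0.57 by day 11, and at -0.58 in 4F against 3F at day 5. Fgfr1 was at 0.93 in R1 and 0.67 in 4F by day 5, and at 0.41 in R1 by day 11 (adjusted p = 0.161). Etv4 was at -0.67 in 4F by day 5, at -0.81 in R1 by day 11 and at 0.77 in 4F against 3F at day 5, besides the day 0 values given above.

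**Figure D5:**
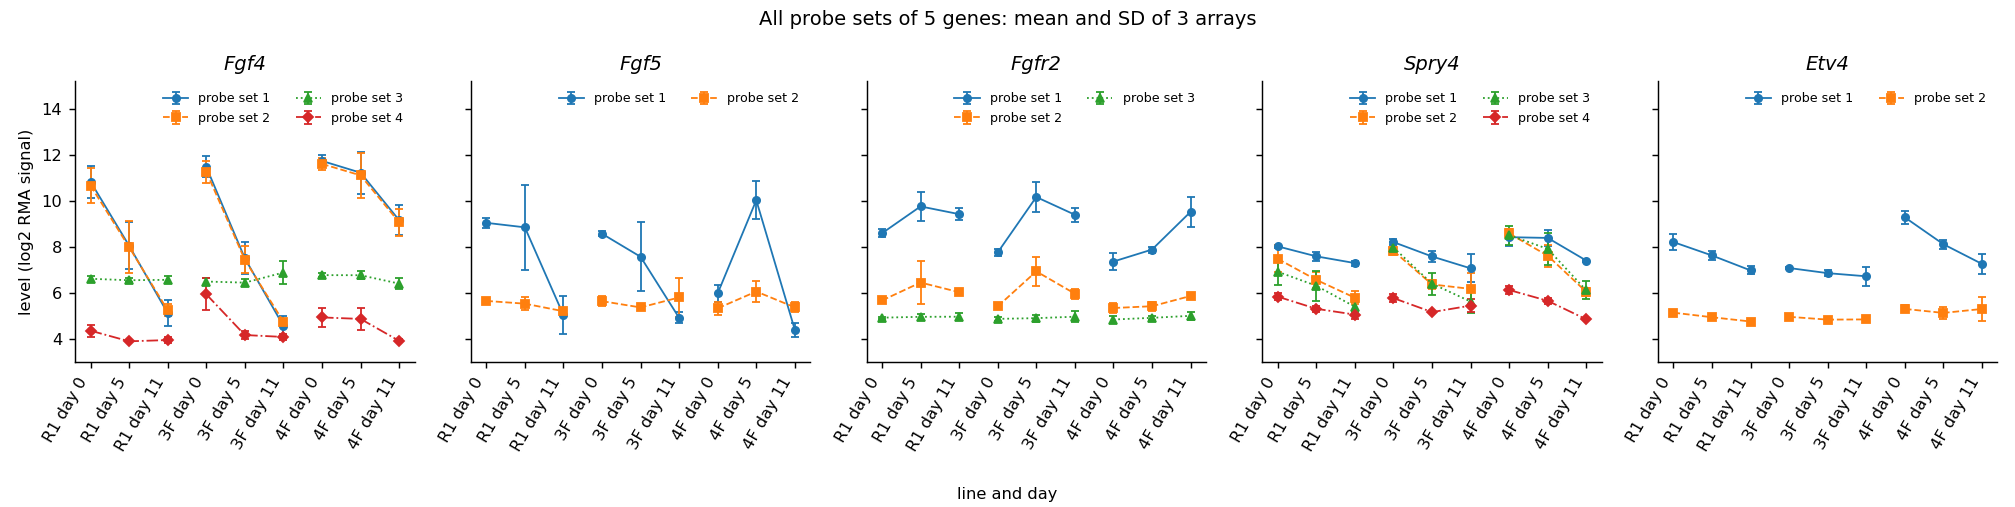
Level of every probe set (vertical axis, log2 RMA signal, mean and SD of 3 arrays) of Fgf4, Fgf5, Fgfr2, Spry4 and Etv4 in the 9 groups of line and day (horizontal axis), numbered from the brightest. Probe sets 1 and 2 of Fgf4 lie on each other while probe set 3 stays between 6.16 and 7.44 in all arrays.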

How the data were processed

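Gene expression was measured on 27 Affymetrix mouse arrays, 3 in each of 9 groups taken from the labels. Deposited values are log2 signals that the authors obtained with RMA (background correction, quantile normalization and probe summary), per the submitters' processing notes; the RMA version is not given in the sources used here, and RMA compresses large differences. Replicates are biological, per the labels. Control probe sets (64) and those with several symbols (932) or none were left out, and the probe set with the brightest mean stood for each of 18193 genes.

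One mean per group was fitted over all arrays with limma 3.58.1 in R 4.3.3 (lmFit, eBayes). P-values were adjusted by Benjamini-Hochberg over all genes, and a gene was called with an adjusted p under 0.05 and at least a 2-fold change. There were 24 comparisons: 9 between days, 9 between lines and 6 of changes between lines. The fit was tested on simulated data. Figures and tables used Python 3.11.15, pandas 2.3.3, numpy 2.4.6 and matplotlib 3.10.9. Promoters came from RefSeq (GRCm38.p6).

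The members and lists were chosen with earlier results of these data known. All 10 genes were named in every comparison that called them. From each of 4 pathway lists the counts and at most 3 called genes with the largest change were named, and the 3 genes of highest correlation for each member.

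Same-numbered replicates deviated together in every pair in 3 comparisons: day 11 against day 5 in 4F (correlations 0.13, 0.10 and 0.15), 4F with R1 at day 0 (0.48, 0.25 and 0.33) and 3F with R1 at day 11 (0.12, 0.49 and 0.39). The labels do not say what a number shares. Alternatives were other scalings, a filter on dim genes (14699 kept), the replicate block, only the compared arrays, the mean of probe sets, the 3' minus 5' index as a covariate, a robust fit, an adjusted p under 0.01 and each array left out. The block fitted to only the compared arrays was added after seeing the data.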

Additional observations from a re-analysis of the deposited data

Results flagged for a closer look

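In 9 results the change over time differed between lines by a test of the difference itself in limma, with adjusted p-values over all genes. All involve 4F, and the values are on the log2 scale. From day 0 to day 5 the change of Fgf5 was higher in 4F than in R1 by 4.24 (adjusted p = 0.0122) and than in 3F by 5.05 (adjusted p = 0.00308), and both were called with any one of the 12 arrays left out. The change of Fgf4 was higher in 4F than in 3F by 3.46 (adjusted p = 0.00599), also with any one array left out (3.18 to 3.98). The change of Fgfr2 in 4F minus that in 3F was -1.89 (adjusted p = 0.0166), and this call ended without replicate 2 of 3F at day 5 (-1.60, adjusted p = 0.0617) or replicate 3 of 4F at day 0 (-1.69, adjusted p = 0.0544).

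From day 5 to day 11 the change of Fgfr2 was higher in 4F than in R1 by 1.97 (adjusted p = 0.00799) and than in 3F by 2.41 (adjusted p = 0.00165), each with any one array left out, and the former was 0.97 with the probe sets of the gene averaged. The fall of Fgf15 was smaller in 4F than in 3F by 1.97 (adjusted p = 0.00877), with any one array left out, and smaller than in R1 by 1.51 (adjusted p = 0.0405). The latter was called with 4 of 12 arrays left out in turn (1.14 to 1.71) and lost its call without replicate 2 or 3 of R1 at either day, any replicate of 4F at day 5 or replicate 2 of 4F at day 11. The fall of Fgf5 was larger in 4F than in 3F, at -2.98 (adjusted p = 0.0446), and was called with 4 of 12 arrays left out in turn (-3.84 to -2.49). The call was also lost after cyclic loess (-2.78, adjusted p = 0.061) and with only the compared arrays (adjusted p = 0.0745). It lost its call without replicate 2 or 3 of 3F at day 5, replicate 1 of 3F at day 11, replicate 1 or 2 of 4F at day 5 or any replicate of 4F at day 11.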

How the results depend on the processing

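Of 70 called member changes none reversed under any alternative run. Several alternatives could not reverse a change, because they leave its log2 value as it is and alter only the p-value or its threshold. These were the dim gene filter, the replicate block, only the compared arrays, the robust fit and the stricter adjusted p. With each array left out, 406 of 474 values were still called, and 582 of 638 under the other alternatives. Counts of members called moved as follows. With the mean of probe sets they were 2 (from 5) for R1 and 2 (from 4) for 4F by day 5, 0 (from 1) for 3F and 1 (from 3) for 4F against R1 at day 0, 1 (from 2) for the 4F and R1 pair at day 5, and 1 (from 2) for the change from day 5 to day 11 of 4F against R1. At an adjusted p under 0.01 they were 2 for 4F by day 5, 1 for 4F against R1 and 1 for 4F against 3F at day 0, 0 (from 1, with 3 at an unadjusted p under 0.05 in limma) for the change from day 0 to day 5 of 4F against R1, and 1 for that from day 5 to day 11. Quantile normalization gave 1 for 4F against R1 at day 0, 2 (from 1) at day 11 against each line, and 2 for the change to day 5 of 4F against R1. Cyclic loess gave 2 and 2 at day 11, and 3 for that change. The index covariate gave 3 (from 5) for 4F against 3F at day 5, and only the compared arrays gave 1 for the change from day 5 to day 11 of 4F against R1. With single arrays left out the counts ran from 2 to 4 for 4F by day 5, 0 to 3 for 4F against R1 and 1 to 1 for 4F against 3F at day 0, 2 to 4 and 3 to 7 at day 5, 1 to 2 and 1 to 2 at day 11, and 1 to 3 and 1 to 2 for the changes of 4F against R1.

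With the replicate number as a block, the change from day 0 to day 5 of 4F against R1 had 3 calls in place of 1, Fgf4 (2.27, adjusted p = 0.0223) and Fgfr3 (-1.13, adjusted p = 0.0405) in addition. Fgfr2 in 4F against R1 at day 0 lost its call (adjusted p = 0.0511). Fitted to only the compared arrays, the block left the counts at 5 (4F day 11 against day 5), 3 (day 0, 4F with R1) and 0 (day 11, 3F with R1, also 0 at an unadjusted p under 0.05 in limma without the block). The causes of these changes were not tested. The index was highest in 4F at day 11 and overlapped no other group, so covariate values of that group are extrapolations. Several other compared groups did not overlap in the index, and their covariate values have the same limit. The number of arrays and dim signal (Fgf10) limit what could be seen.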
